A study of Rattus norvegicus with 16 samples.

Results

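Transcript levels of 43 genes of the interferon response and of antigen presentation by major histocompatibility complex (MHC) class I were examined in the normal distal colon of 16 male rats. The genes were a list of symbols, and each was represented by the probe with the highest mean signal among those whose RefSeq accession belonged to it. A probe was found for 39 of the 43 genes, out of 15159 genes with a probe on the array, and Gbp4, Xaf1, Herc6 and Nlrc5 were without one. All rats were F1 animals of the strain (ACIxF344)F1-Pirc, aged 97 days. They were either wildtype or Pirc/+, that is heterozygous for the Pirc mutation of Apc, a tumor suppressor gene whose loss starts colonic adenomas. Within each genotype, 4 rats were untreated and 4 had been given 4% dextran sodium sulfate (DSS), which damages and inflames the colonic lining, in the drinking water. DSS was given from day 40 to day 47 and again from day 54 to day 61, so the tissue was taken 36 days after the last dose. According to the labels each array is a separate rat. The tissue was labelled normal distal colon in Pirc as in wildtype rats. All 7 measured markers of distal colon were above background on 16 of 16 arrays. Of 3 measured genes listed as low in distal colon, the liver transcript Alb was above background on 1 array. The other 2 were above background on all 16 arrays, so this list does not separate the tissue cleanly.

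Interferons are secreted proteins that bind receptors on neighbouring cells and signal to the nucleus through kinases and transcription factors. Type I and III interferons act through a DNA element called the interferon-stimulated response element (ISRE), and interferon gamma acts through the gamma-activated site (GAS). The induced genes encode antiviral effectors, sensors of viral RNA and further regulators. They also encode the machinery that cuts proteins into peptides, carries the peptides into the endoplasmic reticulum and loads them on MHC class I for display to cytotoxic T cells. In the colon these genes are known to respond to the microbiota and to inflammation.

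The proximal promoters are shown for 6 of the genes that feature in the differences described below. They are Ifit3, Ifitm3 and Gbp2, which had the 3 largest DSS differences over both genotypes, the regulator Irf7, and the class I genes Tapbp and B2m. Each sequence is the 250 bases before the RefSeq transcription start, read 5′ to 3′ on the strand of the gene, with matches to the ISRE core (GAAA, any 2 bases, GAAA, on either strand) and to GAS (TTC, any 3 bases, GAA) in capitals.
Ifit3, GRCr8 chr1:241527076-241527325, plus strand: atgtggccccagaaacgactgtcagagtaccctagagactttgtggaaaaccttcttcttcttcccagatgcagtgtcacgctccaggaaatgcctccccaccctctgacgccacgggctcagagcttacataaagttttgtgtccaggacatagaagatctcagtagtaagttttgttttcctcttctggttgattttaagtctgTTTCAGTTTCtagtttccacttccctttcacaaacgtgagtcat
Ifitm3, GRCr8 chr1:205541759-205542008, minus strand: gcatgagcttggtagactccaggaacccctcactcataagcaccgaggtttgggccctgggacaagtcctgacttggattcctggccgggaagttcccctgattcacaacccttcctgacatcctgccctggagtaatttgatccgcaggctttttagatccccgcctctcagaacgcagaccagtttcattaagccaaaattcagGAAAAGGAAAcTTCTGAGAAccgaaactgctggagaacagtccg
Gbp2, GRCr8 chr2:234005477-234005726, plus strand: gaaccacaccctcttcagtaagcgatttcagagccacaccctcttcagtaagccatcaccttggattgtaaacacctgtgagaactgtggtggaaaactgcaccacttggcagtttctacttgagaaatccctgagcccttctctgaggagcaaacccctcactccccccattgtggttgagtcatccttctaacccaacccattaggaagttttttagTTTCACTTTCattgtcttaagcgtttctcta
Irf7, GRCr8 chr1:205800024-205800273, minus strand: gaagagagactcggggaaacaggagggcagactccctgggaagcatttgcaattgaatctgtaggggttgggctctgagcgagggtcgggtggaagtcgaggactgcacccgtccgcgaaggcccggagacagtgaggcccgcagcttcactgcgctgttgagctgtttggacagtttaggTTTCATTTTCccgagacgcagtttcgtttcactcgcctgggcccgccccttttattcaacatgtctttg
Tapbp, GRCr8 chr20:4967878-4968127, minus strand: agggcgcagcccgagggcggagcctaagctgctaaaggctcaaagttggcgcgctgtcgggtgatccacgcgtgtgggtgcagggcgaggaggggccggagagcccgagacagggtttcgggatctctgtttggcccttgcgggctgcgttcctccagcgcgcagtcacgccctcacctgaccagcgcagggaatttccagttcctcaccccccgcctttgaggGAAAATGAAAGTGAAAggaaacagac
B2m, GRCr8 chr3:129549080-129549329, plus strand: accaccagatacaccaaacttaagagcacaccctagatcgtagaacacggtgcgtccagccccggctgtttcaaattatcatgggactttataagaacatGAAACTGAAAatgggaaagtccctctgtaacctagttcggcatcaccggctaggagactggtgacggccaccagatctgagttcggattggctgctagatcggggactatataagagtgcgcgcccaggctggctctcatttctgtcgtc

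An ISRE core was present in each of the 6 windows, and Ifitm3 also held a GAS match. The Ifit3, Ifitm3 and Gbp2 matches to the ISRE core began 44, 44 and 31 bases before the start, the Irf7 match 69 bases and the B2m match 150 bases before it. Tapbp held 2 matches that overlap, 26 and 20 bases before its start. Of the 43 genes, 36 had a promoter entry, and 24 of the 36 (66.7%) held an ISRE core in this window, against 902 of all 27457 RefSeq promoters (3.29%). A GAS match was found in 12 of the 36 (33.3%) and in 7.52% of all promoters. By role the ISRE core was found in 11 of 14 antiviral effectors, 5 of 6 GTPases, 5 of 7 class I processing genes and 1 of 5 regulators. A match is a description of the letters and not evidence of binding.

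A level is the log2 of a probe's background-subtracted signal relative to the 75th percentile of its array, so a level of 0 equals that percentile and levels of different probes are not comparable. A difference is in log2 units, with its standard error (SE) from limma, and a gene is said to rise or fall where the Benjamini-Hochberg adjusted p over all 30367 probes was 0.05 or less. Of the 39 genes, 36 were above background on all 16 arrays. Trim21 was above background on 15 arrays, Ifit3 on 11 and Ifit1 on 1. In bulk tissue, fewer cells of a type and less RNA per cell cannot be told apart.

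**Figure D1:**
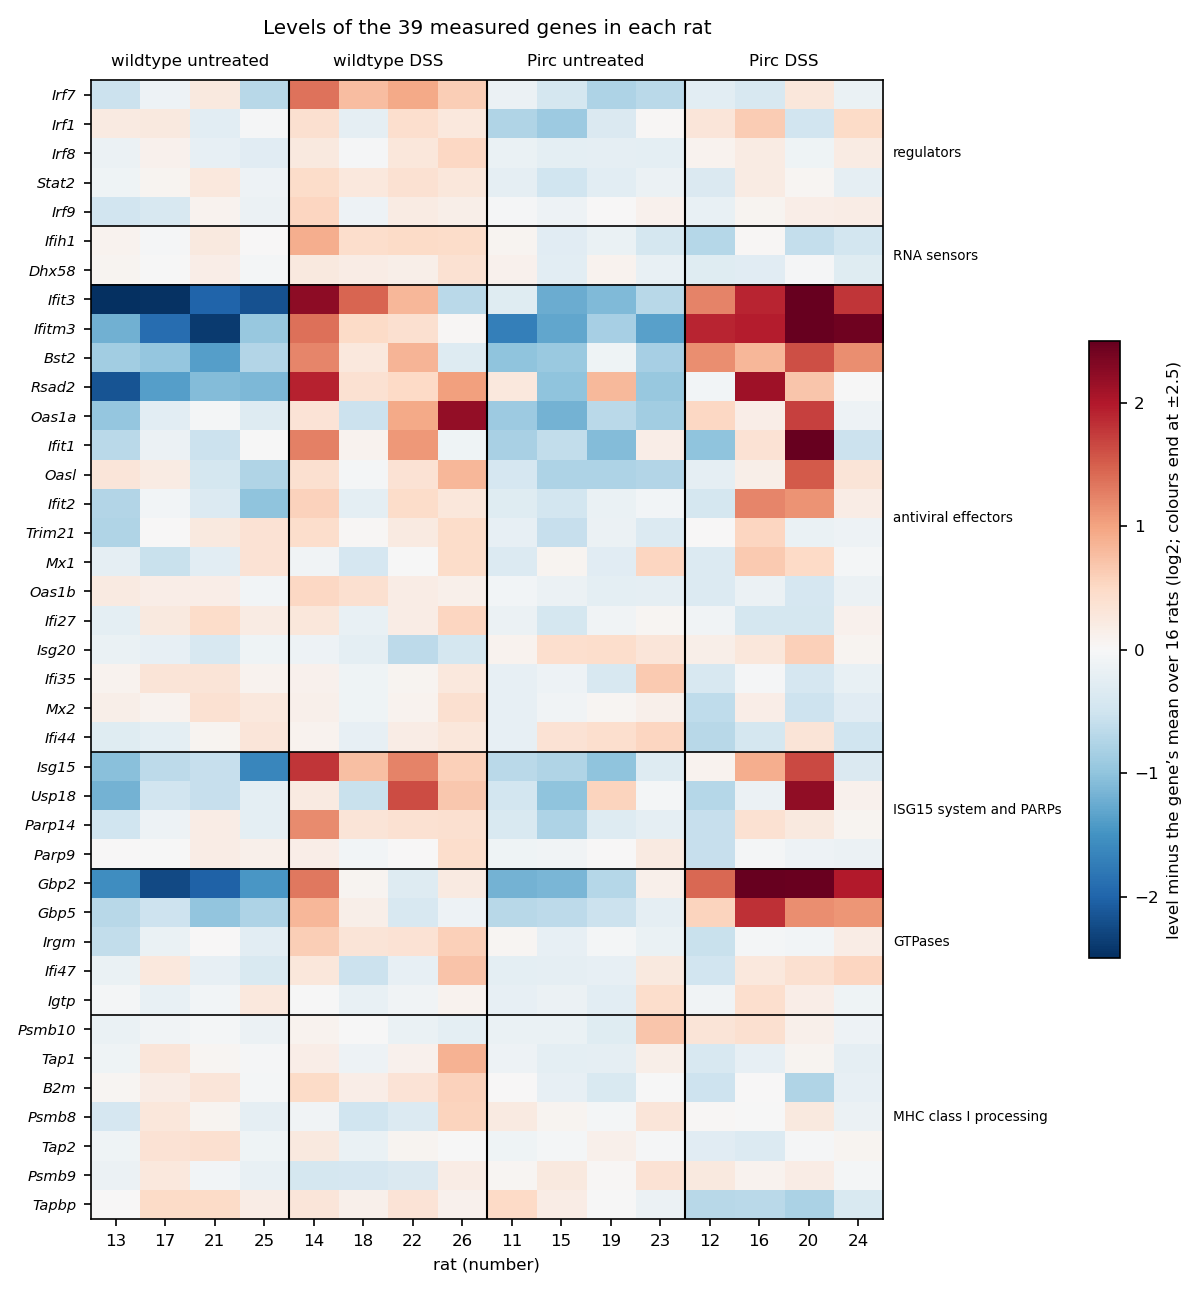
Levels of the 39 measured genes in each of the 16 rats, as the level minus the gene's mean over all rats (log2, colour), with genes in rows by role and rats in columns by group. Red blocks in the DSS groups lie in the antiviral effectors, Isg15, Gbp2 and Gbp5. The class I processing genes at the bottom are pale, including Tapbp, which is lower in DSS-treated Pirc rats.

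DSS left a part of this gene set higher 36 days after the last dose. Over both genotypes, 13 of the 39 genes rose and 1 fell, compared with 10.2% of all probes that rose and 6.99% that fell, or 11.2% and 8.86% of the brightest probe of each named gene. The median difference of the 39 genes was 0.24, against 0.06 over all probes. In Pirc rats 7 rose and 1 fell, where 8.14% of probes rose and 6.51% fell (9.47% and 8.15% by gene). In wildtype rats 8 rose and none fell, where 2.94% of probes rose and 0.899% fell (3.69% and 1.18% by gene). The median differences were 0.19 in Pirc and 0.31 in wildtype rats. Quantile normalization in place of the 75th percentile moved the median of all probes over both genotypes from 0.06 to -0.09. It turned the split of called probes from 3111 higher of 5234 to 2609 higher of 6928 over both genotypes, from 2473 of 4451 to 2291 of 6135 in Pirc rats and from 892 of 1165 to 759 of 1424 in wildtype rats. With it, 11 of the 39 genes rose and 1 fell over both genotypes, 6 rose and 3 fell in Pirc rats, and 8 rose and none fell in wildtype rats. Ifit3, Ifitm3, Bst2, Isg15 and Gbp2 were the 5 genes that rose in both genotypes. The Isg15 call in Pirc rats lay at the threshold, as described below.

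The antiviral effectors held most of the rises, with 7 of 16 measured members higher over both genotypes and none lower. Of all probes, 10.2% rose and 6.99% fell in this comparison. Ifit3 encodes a protein that helps IFIT1 bind viral RNA. Its level was -9.02, -8.41, -7.95 and -8.13 in untreated and -3.71, -4.49, -5.11 and -6.62 in DSS-treated wildtype rats. In Pirc rats it was -6.25, -7.19, -7.05 and -6.64 without and -4.70, -4.04, -1.64 and -4.15 with DSS. The DSS groups did not overlap the untreated groups in either genotype. The probe was not well above background on any array of the untreated wildtype rats. There Ifit3 rose (adjusted p = 0.00926), at least 9.19-fold when each untreated array takes the higher of its own lowest detected signal and the signal of the probe. This bound depends on the floor: with 1 common floor of -6.22 for all arrays, which lies above all untreated levels of both genotypes, the wildtype difference was 1.34 (adjusted p = 0.303). After a normexp background correction it was 0.93 (adjusted p = 0.292). In Pirc rats, where 3 of the 4 untreated arrays were above background, Ifit3 rose by 3.15 (SE 0.63, adjusted p = 0.00387). With the common floor the difference in Pirc rats was 2.59 (adjusted p = 0.0137) and with normexp 1.62 (adjusted p = 0.0089).

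Ifitm3, a membrane protein that blocks the entry of viruses into cells, was the only member whose 8 DSS-treated rats all lay above the 8 untreated rats. Its level was -5.26, -5.98, -6.45 and -5.01 in untreated and -2.69, -3.58, -3.66 and -4.04 in DSS-treated wildtype rats. It was -5.78, -5.37, -4.90 and -5.43 in untreated and -2.17, -2.09, -1.0 and -1.64 in DSS-treated Pirc rats. It rose 4.54-fold in wildtype rats (log2 2.18, SE 0.36, adjusted p = 0.00523) and 12.5-fold in Pirc rats (log2 3.64, SE 0.36, adjusted p = 6.06e-05).

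Bst2 encodes tetherin, which holds budding virus at the cell surface. Its level was -3.90, -3.99, -4.41 and -3.75 in untreated and -1.81, -2.76, -2.17 and -3.36 in DSS-treated wildtype rats. It was -4.03, -3.95, -3.13 and -3.85 in untreated and -1.86, -2.19, -1.42 and -1.86 in DSS-treated Pirc rats. Untreated and treated rats did not overlap in either genotype. Bst2 rose by 1.49 in wildtype rats (SE 0.30, adjusted p = 0.0138) and by 1.91 in Pirc rats (SE 0.30, adjusted p = 0.000865).

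Rsad2 encodes viperin, an enzyme that makes a chain-terminating nucleotide. Its level was -4.89, -4.13, -3.82 and -3.86 in untreated and -0.82, -2.36, -2.24 and -1.71 in DSS-treated wildtype rats, without overlap. In Pirc rats the levels were -2.47, -3.74, -1.92 and -3.69 without and -2.80, -0.62, -2.04 and -2.75 with DSS, and the groups overlapped. Rsad2 rose by 2.39 in wildtype rats (SE 0.52, adjusted p = 0.0209). The difference in Pirc rats was 0.90 and did not pass.

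Oasl belongs to the family of 2′-5′-oligoadenylate synthetase proteins, which take part in sensing double-stranded RNA. It was -3.24, -3.59, -3.60 and -3.56 in untreated and -3.04, -2.67, -1.29 and -2.51 in DSS-treated Pirc rats, without overlap. In wildtype rats it was -2.51, -2.61, -3.27 and -3.58 without and -2.42, -2.87, -2.46 and -1.99 with DSS, with overlap. It rose by 1.12 in Pirc rats (SE 0.33, adjusted p = 0.0359). Without rat 20, the highest of the treated Pirc rats, the difference was 0.76 (adjusted p = 0.0967). The Pirc call was also lost without several other single rats, such as rat 15 (adjusted p = 0.0857). It was lost with no moderation (adjusted p = 0.0535) and on the compared groups alone (adjusted p = 0.0902). The related synthetase Oas1a rose by 1.31 over both genotypes (SE 0.34, adjusted p = 0.0147) and in neither alone. Ifit2, another RNA-binding IFIT protein, rose by 0.79 (adjusted p = 0.0274). After quantile normalization Ifit2 differed by 0.54 (adjusted p = 0.105) and Oasl by 0.70 (adjusted p = 0.0515) over both genotypes.

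The other 9 antiviral effectors did not pass with DSS in any of the 3 comparisons. Over both genotypes their differences were 0.93 for Ifit1, which was near background, 0.35 for Trim21 and 0.17 for the dynamin-like GTPase Mx1. For Mx2, Oas1b, Isg20, Ifi27, Ifi35 and Ifi44 they lay between -0.24 and 0.04. So classical markers of the response such as Mx1 and Mx2 were not called while Ifit3 and Ifitm3 rose.

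**Figure D2:**
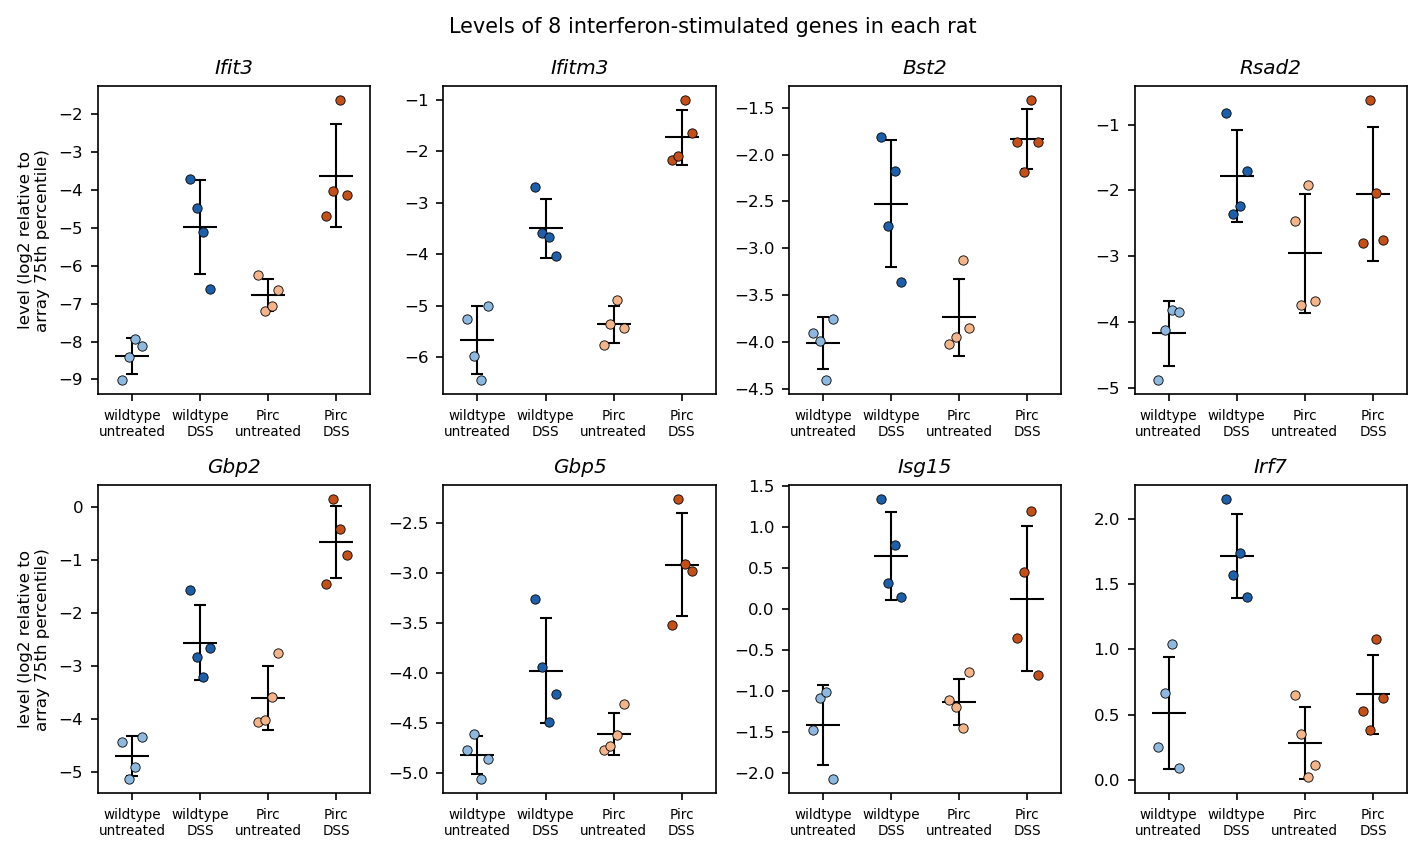
Level of 8 interferon-stimulated genes in each rat (log2 relative to the array's 75th percentile, own scale for each gene), with points for rats and bars for the group mean ± SD (n = 4). Ifitm3, Bst2 and Gbp2 were higher with DSS in both genotypes, whereas Rsad2 and Irf7 separated the treated from the untreated rats in the wildtype only.

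Among the 5 measured interferon-inducible GTPases, which attack membranes that enclose microbes, 2 rose over both genotypes. This count is too small to set against the 10.2% of probes that rose. Gbp2, a guanylate-binding protein, had levels of -4.44, -5.15, -4.91 and -4.34 in untreated and -1.56, -2.83, -3.22 and -2.66 in DSS-treated wildtype rats. In Pirc rats they were -4.07, -4.03, -3.60 and -2.77 without and -1.45, 0.16, -0.42 and -0.90 with DSS. The groups did not overlap within either genotype. Gbp2 rose 4.42-fold in wildtype rats (log2 2.14, SE 0.40, adjusted p = 0.00959) and 7.8-fold in Pirc rats (log2 2.96, SE 0.40, adjusted p = 0.0003).

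Gbp5, which promotes inflammasome assembly, was -4.78, -4.74, -4.63 and -4.31 in untreated and -3.53, -2.27, -2.91 and -2.98 in DSS-treated Pirc rats. In wildtype rats it was -4.77, -4.61, -5.07 and -4.86 without and -3.27, -3.95, -4.50 and -4.22 with DSS. Treated and untreated rats did not overlap in either genotype, but only the Pirc difference of 1.69 passed (SE 0.27, adjusted p = 0.000857). The wildtype difference was 0.85 (adjusted p = 0.101).

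Irgm, an immunity-related GTPase, was -3.93, -3.50, -3.32 and -3.58 in untreated and -2.71, -3.01, -2.97 and -2.72 in DSS-treated wildtype rats, without overlap. Pirc rats had -3.27, -3.53, -3.37 and -3.50 without and -3.89, -3.38, -3.39 and -3.15 with DSS, with overlap. It rose by 0.73 in wildtype rats (SE 0.17, adjusted p = 0.0261) and differed by -0.03 in Pirc rats. Ifi47 and Igtp, also immunity-related GTPases, did not pass, with differences of 0.24 and 0.05 over both genotypes. Igtp has a second, dimmer probe that differed in sign in Pirc rats (-0.54 against 0.14 for the brighter probe), so its level is uncertain.

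Isg15, a ubiquitin-like protein that is attached to other proteins after interferon, was -1.48, -1.09, -1.01 and -2.08 in untreated and 1.35, 0.32, 0.79 and 0.15 in DSS-treated wildtype rats. Pirc rats had -1.11, -1.19, -1.45 and -0.77 without and -0.35, 0.46, 1.20 and -0.80 with DSS. The wildtype groups did not overlap, whereas 1 treated Pirc rat lay within the untreated range. Isg15 rose by 2.07 in wildtype rats (SE 0.39, adjusted p = 0.00982) and by 1.26 in Pirc rats (SE 0.39, adjusted p = 0.0428). Without rat 20 the Pirc difference was 0.90 (adjusted p = 0.138). The Pirc call was also lost without several other single rats, such as rat 19 (adjusted p = 0.110). It was lost with no moderation (adjusted p = 0.0644) and on the compared groups alone (adjusted p = 0.102), so it lay at the threshold. Parp14, an ADP-ribosyltransferase, rose by 0.59 over both genotypes (adjusted p = 0.0233). Usp18, which removes ISG15 from proteins, and Parp9 did not pass (0.86 and -0.09).

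Of the 5 measured regulators, 2 rose over both genotypes and none fell, again too few to set against the 10.2% of probes that rose. Irf7, the factor that amplifies type I interferon synthesis, was 0.25, 0.67, 1.04 and 0.09 in untreated and 2.15, 1.57, 1.74 and 1.40 in DSS-treated wildtype rats, without overlap. Pirc rats had 0.65, 0.35, 0.03 and 0.11 without and 0.53, 0.39, 1.08 and 0.63 with DSS, with overlap. It rose by 1.20 in wildtype rats (SE 0.23, adjusted p = 0.0114), and the Pirc difference of 0.37 did not pass.

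Irf1, a factor induced by interferon gamma, had levels of 2.57, 2.41, 2.96 and 3.35 in untreated and 3.63, 3.96, 2.85 and 3.79 in DSS-treated Pirc rats. In wildtype rats they were 3.55, 3.57, 3.06 and 3.28 without and 3.73, 3.1, 3.74 and 3.58 with DSS. The groups overlapped in both genotypes, and the differences of 0.74 in Pirc rats (adjusted p = 0.0702) and 0.17 in wildtype rats did not pass. Irf8, a factor of myeloid and dendritic cells, rose by 0.36 over both genotypes (SE 0.09, adjusted p = 0.016), but differed by 0.19 after quantile normalization (adjusted p = 0.127) and by 0.28 after normexp (adjusted p = 0.061). Stat2 and Irf9, which encode parts of the complex that binds the ISRE, differed by 0.26 and 0.24 and did not pass. The RNA sensors Ifih1 (MDA5) and Dhx58 (LGP2) did not pass with DSS in either genotype, although both were called lower in Pirc rats after quantile normalization (median -0.41, against -0.19).

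Of the 7 measured class I processing genes none rose in any DSS comparison and 1 fell, a count too small to set against the 10.2% of probes that rose and 6.99% that fell over both genotypes. Psmb8, Psmb9 and Psmb10, the catalytic subunits of the immunoproteasome, differed by -0.06, -0.14 and 0.09 over both genotypes. The peptide transporter subunits Tap1 and Tap2 differed by 0.06 and -0.12. Tapbp encodes tapasin, which bridges the transporter and the class I molecule. Its level was 1.79, 1.47, 1.28 and 1.15 in untreated and 0.60, 0.63, 0.49 and 0.90 in DSS-treated Pirc rats. In wildtype rats it was 1.29, 1.77, 1.77 and 1.47 without and 1.59, 1.41, 1.63 and 1.39 with DSS. The 4 treated Pirc rats lay below all 12 other rats. Tapbp fell by 0.77 in Pirc rats (SE 0.16, adjusted p = 0.00504), or 1.7-fold, and differed by -0.07 in wildtype rats.

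**Figure D3:**
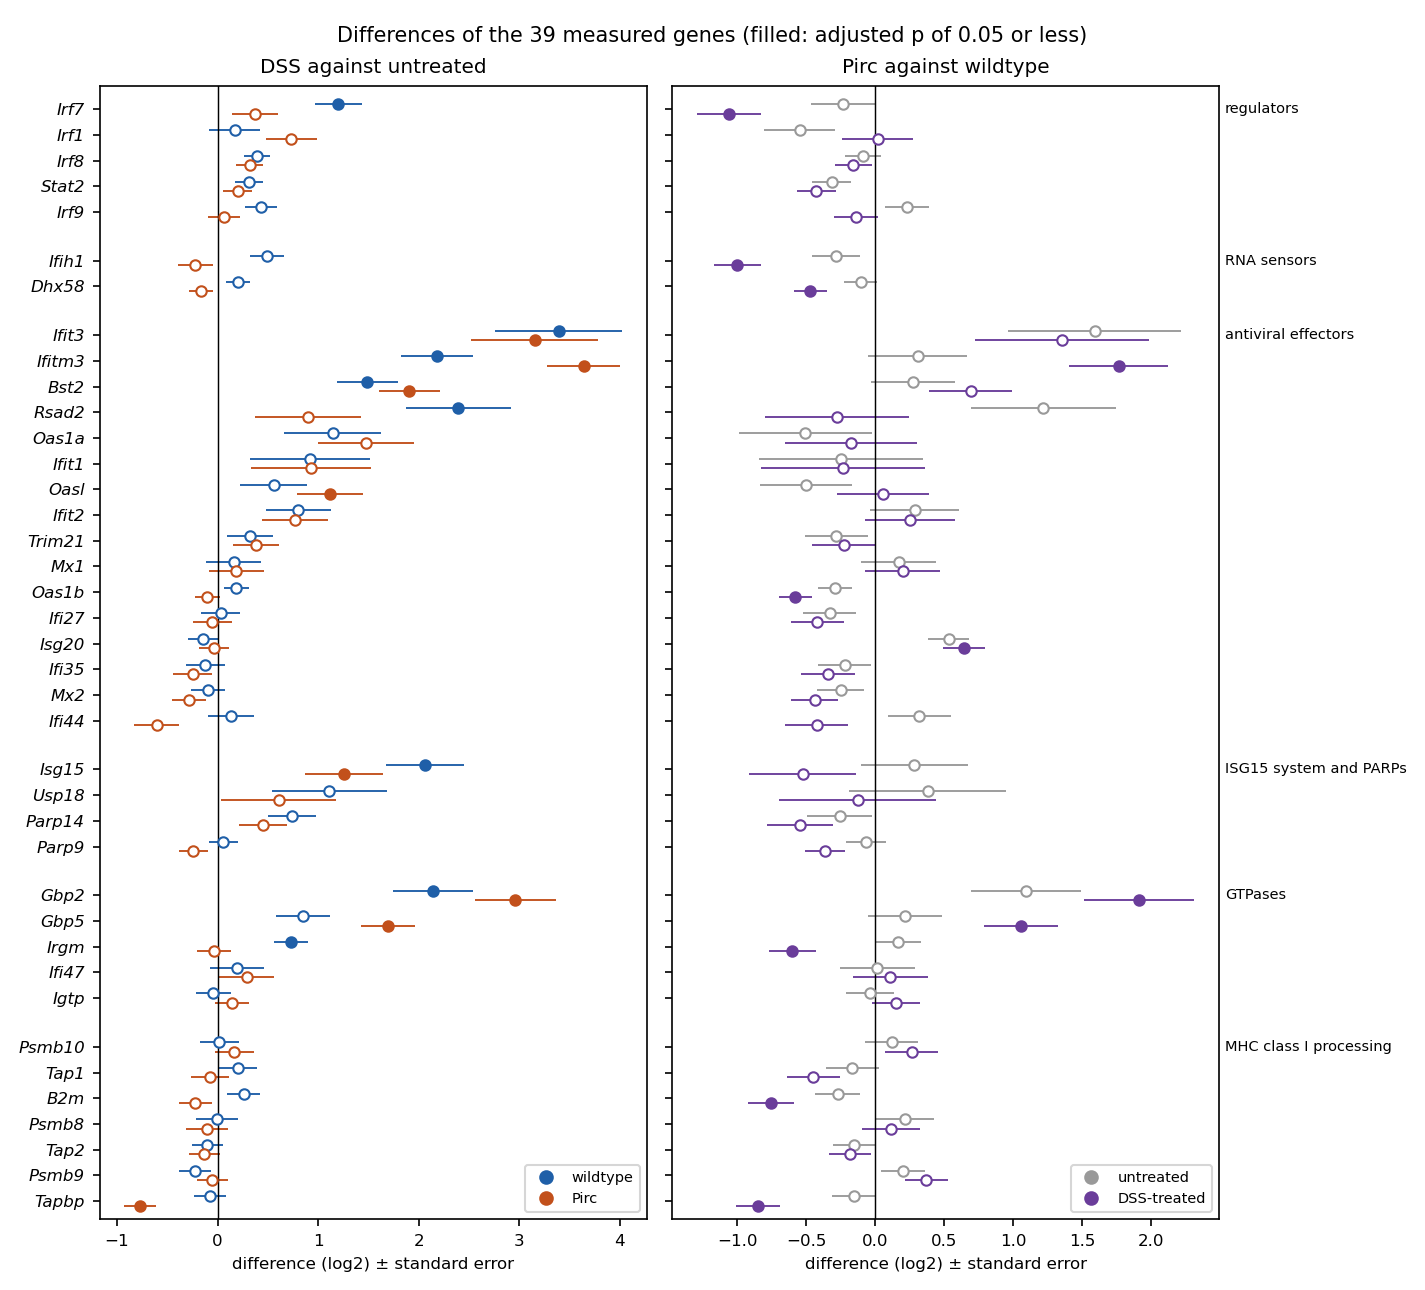
Differences of the 39 measured genes (log2, points with SE; filled where the adjusted p was 0.05 or less), for DSS against untreated rats in each genotype on the left and Pirc against wildtype rats in each treatment on the right. On the left the largest differences are those of Ifit3, Ifitm3, Gbp2 and Rsad2, and on the right no untreated difference is filled.

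Pirc and wildtype rats were compared next. Among untreated rats none of the 39 genes passed with limma, and at the same adjusted threshold 0% of probes were higher and 0% lower. An unadjusted p under 0.05 was found for 6 of the 39, but the share of all probes at that threshold was not counted. The 5 smallest p-values belonged to Isg20 with a difference of 0.53 (adjusted p = 0.263), Gbp2 with 1.10 (0.358), Ifit3 with 1.59 (0.396), Oas1b with -0.29 (0.43) and Rsad2 with 1.22 (0.442). The Ifit3 value has the untreated wildtype rats below background, and after normexp correction it was -0.05.

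Among DSS-treated rats 4 genes were higher and 7 lower in Pirc than in wildtype rats, where 9.47% of probes were higher and 8.76% lower (8.81% and 9.99% by gene). The count is close to the share among all probes for higher genes and above it for lower ones. The 4 higher genes were Gbp2 by 1.91 (SE 0.40, adjusted p = 0.00608), Ifitm3 by 1.77 (SE 0.36, adjusted p = 0.00544), Gbp5 by 1.06 (SE 0.27, adjusted p = 0.0147) and Isg20. Isg20 encodes an exonuclease that degrades viral RNA. Its level was 0.28, 0.15, -0.26 and -0.04 in DSS-treated wildtype and 0.55, 0.69, 1.0 and 0.47 in DSS-treated Pirc rats, and from 0.00 to 0.29 and from 0.49 to 0.84 in the untreated rats of these genotypes. All 8 Pirc rats lay above all 8 wildtype rats. The difference was 0.64 with DSS (SE 0.15, adjusted p = 0.0101) and 0.59 over both treatments (adjusted p = 0.00305).

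The 7 lower genes included Irf7, both RNA sensors and 2 class I genes. Irf7 fell short of the wildtype level by 2.08-fold (log2 -1.06, SE 0.23, adjusted p = 0.00767), with all 4 treated Pirc rats below the 4 treated wildtype rats. Ifih1 was -3.32, -3.43, -3.17 and -3.41 in untreated and -2.5, -2.97, -2.94 and -2.96 in DSS-treated wildtype rats. In Pirc rats it was -3.35, -3.70, -3.57 and -3.85 without and -4.11, -3.37, -4.00 and -3.87 with DSS. The treated groups were separate, and the difference was -1.0 (SE 0.17, adjusted p = 0.00243).

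Dhx58 was -3.26, -3.34, -3.17 and -3.37 in untreated and -3.08, -3.14, -3.17 and -2.95 in DSS-treated wildtype rats. In Pirc rats it was -3.22, -3.59, -3.24 and -3.51 without and -3.63, -3.61, -3.36 and -3.63 with DSS. The treated groups did not overlap, and the difference was -0.47 (SE 0.12, adjusted p = 0.0152). Irgm differed by -0.60 (adjusted p = 0.0237). Igtp was not called by its brighter probe (0.15), but its dimmer probe was lower in treated Pirc rats (-0.60, adjusted p = 0.0314). Oas1b, a member of the oligoadenylate synthetase family, was 5.34, 5.21, 5.01 and 4.94 in treated wildtype and 4.46, 4.66, 4.40 and 4.66 in treated Pirc rats. Its untreated levels were 5.04, 4.99, 4.98 and 4.74 in wildtype and 4.75, 4.67, 4.58 and 4.59 in Pirc rats. The treated groups were separate, with a difference of -0.58 (SE 0.12, adjusted p = 0.00627).

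B2m encodes beta-2 microglobulin, the light chain of every class I molecule. It was 5.13, 5.25, 5.37 and 5.03 in untreated and 5.54, 5.23, 5.41 and 5.64 in DSS-treated wildtype rats. Pirc rats had 5.08, 4.86, 4.69 and 5.05 without and 4.55, 5.07, 4.32 and 4.86 with DSS. The 4 treated Pirc rats lay below the 4 treated wildtype rats, and B2m was 1.68-fold lower (log2 -0.75, SE 0.17, adjusted p = 0.00776). Tapbp was 1.8-fold lower (log2 -0.85, SE 0.16, adjusted p = 0.0037). The other 5 class I processing genes did not pass, with differences from -0.45 for Tap1 to 0.37 for Psmb9.

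Fitted on the DSS-treated rats alone, 5 of these 11 calls remained, namely Gbp2, Ifitm3, Irf7, Ifih1 and Tapbp. Over both treatments 5 genes were higher and 7 lower in Pirc rats, where 9.26% of probes were higher and 8.27% lower. The higher genes were Gbp2 (1.5), Ifitm3 (1.04), Gbp5 (0.64), Isg20 (0.59) and Ifit3, and the lower ones Irf7 (-0.64), Ifih1 (-0.64), B2m (-0.51), Tapbp (-0.50), Oas1b (-0.43), Stat2 (-0.37) and Dhx58 (-0.29). Ifit3 was below background in the untreated wildtype rats, and its call was lost with normexp (adjusted p = 0.366) and with the common floor (adjusted p = 0.392). Gbp5 was not called with normexp (adjusted p = 0.194). These comparisons share their samples with those within each treatment.

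**Figure D4:**
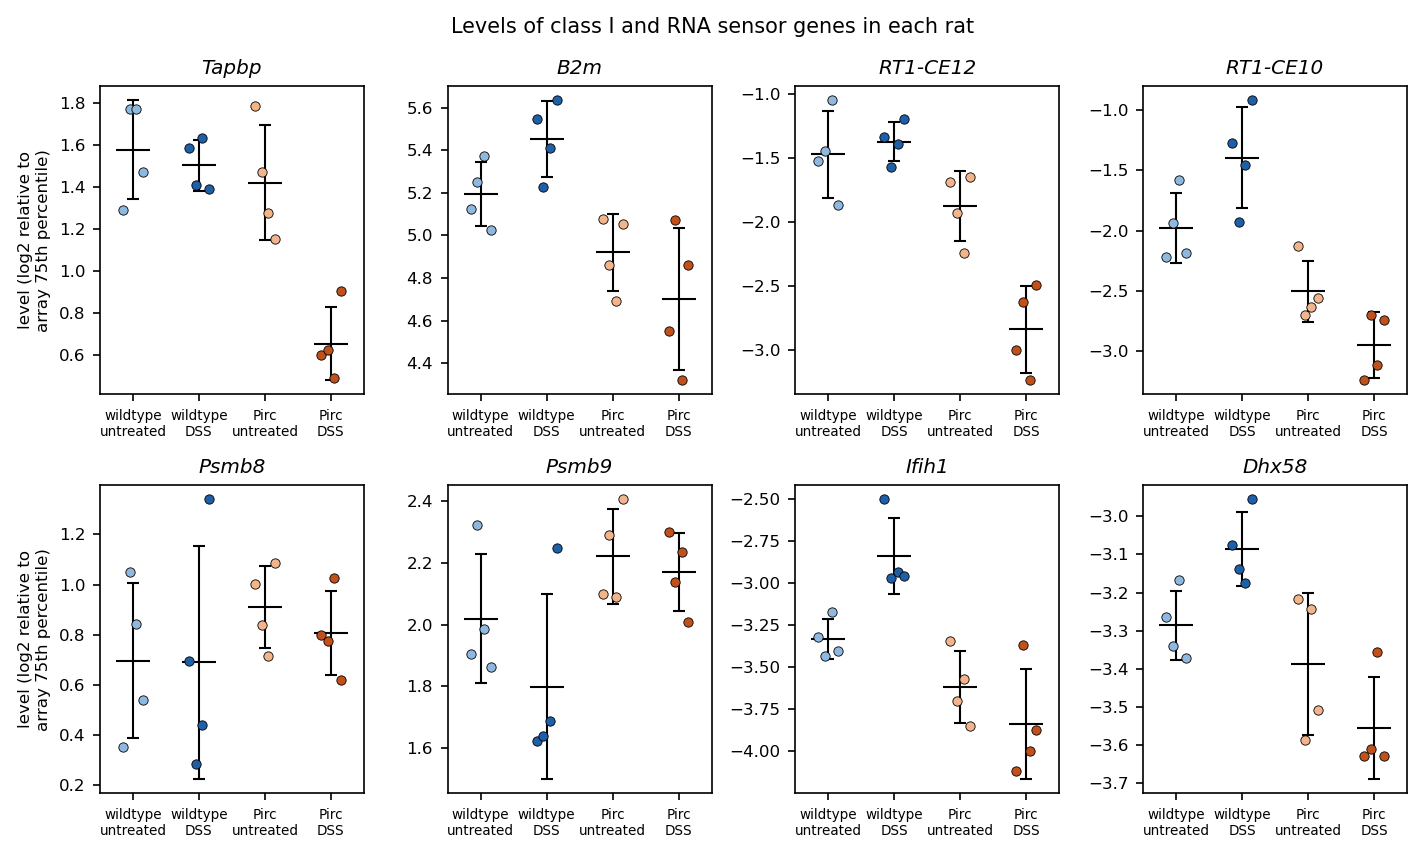
Level of class I and RNA sensor genes in each rat (log2 relative to the array's 75th percentile, own scale for each gene), with points for rats and bars for the group mean ± SD (n = 4). Tapbp, B2m, RT1-CE12, RT1-CE10, Ifih1 and Dhx58 were lower in DSS-treated Pirc than in DSS-treated wildtype rats without overlap, while the immunoproteasome genes Psmb8 and Psmb9 overlapped.

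Whether DSS acted differently in the genotypes was tested as the difference between the DSS effects. None of the 39 genes passed with limma, and at the same adjusted threshold 0.0428% of all probes were higher and 0% lower. Of the 39 genes, 8 had an unadjusted p under 0.05, and the share of all probes at that threshold was again not counted. The 5 smallest p-values belonged to Irgm (-0.76, SE 0.24, adjusted p = 0.291), Tapbp (-0.69, SE 0.23, adjusted p = 0.311), Ifih1 (-0.71, SE 0.24, adjusted p = 0.327), Ifitm3 (1.46, SE 0.51, adjusted p = 0.332) and Irf7 (-0.83, SE 0.33, adjusted p = 0.39). A rise called in 1 genotype, as for Irf7, Rsad2 and Irgm in the wildtype or Gbp5 and Oasl in Pirc rats, is therefore not shown to differ between the genotypes.

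Other genes of the pathway were taken from a list of 91, of which 70 had a probe. With DSS over both genotypes 16 of the 70 rose and none fell, against 11.2% and 8.86% of all genes. In Pirc rats 12 rose and 5 fell, against 9.47% and 8.15%, and in wildtype rats 8 rose and none fell, against 3.69% and 1.18%. The falls in Pirc rats were thus near the share of all genes. The largest rises over both genotypes were in Ido1, the tryptophan-degrading enzyme induced by interferon gamma (2.65, SE 0.23, adjusted p = 1.2e-05), Irf5 (1.97), the cytosolic DNA adaptor Sting1 (1.63), Ifitm1 (1.61) and Oasl2 (1.56). In Pirc rats the 5 largest were Ido1 (2.80), Sting1 (2.70), Irf5 (2.41), the T cell checkpoint ligand Cd274 (2.33) and the signalling inhibitor Socs3 (1.60). In wildtype rats they were Ido1 (2.51), Oasl2 (2.17), the chemokine Cxcl11 (1.71), Ifitm1 (1.65) and Irf5 (1.54). The Cxcl11 call was lost without rat 14 (adjusted p = 0.0639). By list, over both genotypes, 10 of the 25 measured of 33 other interferon-stimulated genes rose. In the same comparison 3 of the 17 measured of 22 interferons, receptors and signalling genes rose, as did 2 of 3 chemokines, none of which passed in Pirc rats. The interferon genes themselves were near background. Ifng was well above background on 0 of 16 arrays and Ifnb1 on 3, and they were singled out after their values were seen.

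Sting1 separated treated Pirc rats from all others, at 1.73, 2.98, 2.22 and 2.20 against -0.48, -0.58, -0.20 and -0.41 in untreated Pirc rats. In wildtype rats it was -0.90, -0.92, -1.12 and -0.50 without and 0.24, -0.36, -0.76 and -0.30 with DSS. It rose by 2.70 in Pirc rats (SE 0.25, adjusted p = 5.3e-05). After DSS the Pirc rats exceeded the wildtype rats by 2.58 (SE 0.25, adjusted p = 8.4e-05). In the same comparison Cd274 was higher by 2.08 and Ido1 by 1.69. The Cd274 call was lost without rat 20 (adjusted p = 0.0503), while that of Ido1 held whichever rat was left out. Of the 70 genes 10 were higher and 20 lower in Pirc than in wildtype rats after DSS, against 8.81% and 9.99% of all genes. Among the 20 lower genes, 11 were RT1 genes, whose calls are not independent, as described below. None of the 70 passed among untreated rats or for the difference between DSS effects. Over both treatments 11 of the 70 were higher and 18 lower, against 9.26% and 8.27% of all probes. The largest differences were in Ido1 (1.54), Sting1 (1.51), RT1-CE10 (-1.04), RT1-CE12 (-0.94) and RT1-CE3 (-0.85).

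The class I heavy chain genes of the rat RT1 complex had differences of the same sign as B2m and Tapbp. Of 14 RT1 genes with a probe, 11 were lower and 2 higher in Pirc than in wildtype rats after DSS. Of all genes, 9.99% were lower and 8.81% higher in this comparison. All 11 lower RT1 genes were without overlap between these groups, which adds little because they were picked by the same values. The share of all genes without overlap was not counted. The differences ran from -1.55 to -0.74 among the 11, and the 2 higher genes were RT1-N3 (0.72) and RT1-M3-1 (0.53). The RT1-N3 call was lost without rat 20 (adjusted p = 0.0979), while that of RT1-M3-1 held whichever rat was left out. RT1-CE10 was -1.27, -1.93, -1.46 and -0.92 in DSS-treated wildtype and -3.24, -2.70, -3.12 and -2.74 in DSS-treated Pirc rats (difference -1.55, SE 0.22, adjusted p = 0.000837). RT1-CE12 was -1.34, -1.57, -1.39 and -1.20 against -3.00, -2.63, -3.24 and -2.5 (difference -1.47, SE 0.20, adjusted p = 0.000723). Within Pirc rats 5 of the 14 RT1 genes fell with DSS, by 0.53 to 0.97, where 8.15% of all genes fell. In wildtype rats none passed. Of these 5 calls only that of RT1-CE12 held whichever rat was left out, while RT1-CE3 (adjusted p up to 0.147), RT1-CE4 (0.0718), RT1-CE7 (0.125) and RT1-S3 (0.138) were lost. Many RT1 genes are similar in sequence, so 1 transcript may bind several of these probes and the 11 calls cannot be taken as independent. The probe sequences were not compared. Among untreated rats none of the 14 passed, with a median difference of -0.21.

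Markers of other cell types moved with DSS as well. Counts of markers that rose or fell are for DSS over both genotypes unless stated, where 11.2% of all genes rose and 8.86% fell. Most of these lists are too short to set their counts against these shares. Summed signals are given relative to each array's 75th percentile, as the range over the 4 rats. All 6 fibroblast markers rose over both genotypes, and their sum was 1.36 to 1.85 in untreated and 2.55 to 14.3 in DSS-treated wildtype rats, and 1.52 to 2.65 and 5.44 to 14.6 in Pirc rats. Of 7 macrophage markers 5 rose, with sums of 9.69 to 12.6 and 13.1 to 25.1 in wildtype and 11.6 to 15.2 and 18.7 to 23.8 in Pirc rats. Both lists were therefore higher in treated rats, in the direction of the genes that rose.

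Of 5 neutrophil markers 3 rose, with sums of 0.351 to 0.709 and 0.906 to 4.39 in wildtype and 0.995 to 1.69 and 9.16 to 37.6 in Pirc rats. Elane was above background on 0 arrays. Of 11 T and natural killer cell markers 4 rose, with sums of 1.04 to 1.23 and 1.34 to 2.16 in wildtype and 1.21 to 1.67 and 1.58 to 1.95 in Pirc rats. Within the genotypes 3 of the 11 rose in wildtype and 1 in Pirc rats, where the differences ran from -1.72 to 1.73. Klrd1 was above background on 0 arrays. By sum both lists thus differed in the same direction, although the T and natural killer cell sums overlapped in Pirc rats. The neutrophil sum was highest in treated Pirc rats.

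Of 4 B and plasma cell markers 3 rose, with sums of 25.2 to 35.9 and 28.5 to 35.4 in wildtype and 18.5 to 22.96 and 26.2 to 50.4 in Pirc rats. Within the genotypes all 4 rose in Pirc rats and none in wildtype rats. Of 3 endothelial markers 2 rose, with sums of 0.378 to 0.548 and 0.522 to 0.892 in wildtype and 0.297 to 0.579 and 0.758 to 1.02 in Pirc rats. Of the 3 measured plasmacytoid dendritic cell markers only Irf8, itself a member, rose. Of 5 smooth muscle markers 1 rose and 1 fell.

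Markers of stratified squamous epithelium, which does not line the distal colon, rose in 5 of 6 cases. Their sums were 0.166 to 0.231 and 0.178 to 33.0 in wildtype and 0.16 to 0.315 and 12.4 to 66.7 in Pirc rats. Among DSS-treated rats 5 of 9 epithelial markers were lower in Pirc than in wildtype rats, with sums of 292 to 376 against 407 to 514, beside the lower class I genes. Of all genes, 9.99% were lower in this comparison. Of the 7 distal colon markers 5 were lower in the same comparison, with sums of 38.5 to 68.97 against 81.9 to 94.1. As drawn up, both lists hold Cdx2, Car1, Slc26a3 and Muc2, so their counts are not separate observations. In untreated rats the distal colon sums were 64.8 to 76.3 in Pirc and 82.8 to 113 in wildtype, also without overlap. The epithelial sums of untreated rats overlapped, at 304 to 406 in Pirc and 330 to 458 in wildtype. With DSS 4 of the 7 distal colon markers fell in Pirc rats, where 8.15% of all genes fell. The part of any of these cell types in the differences of the 39 genes was not tested.

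The arrays lay on 2 slides with 2 rats of each group on each. All 53 differences called for the 39 genes had the same sign on both slides, and with the slide as a block each was still called. Ifitm3 with DSS differed by 2.49 and 1.88 in wildtype rats and by 3.44 and 3.84 in Pirc rats on slides 1 and 2. Tapbp in Pirc against wildtype rats after DSS differed by -0.89 and -0.81, and B2m by -0.57 and -0.93. Each group occupied 1 column of positions on the slides, so array column and group cannot be told apart.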

How the data were processed

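RNA of normal distal colon from 16 rats was hybridised to 1-colour Agilent arrays, 8 arrays on each of 2 slides. The deposited files hold the intensity of each spot as written by Agilent Feature Extraction 10.7.3.1, background-subtracted within the array and not normalized between arrays by the authors. Control spots and outlier-flagged spots were left out, spots of a probe were averaged (25 of 485872 probe values had every spot flagged), and log2 signals were expressed relative to the 75th percentile of the array, which lay between 875 and 2194 across arrays. No spot was saturated. The number of arrays limits the precision. Of 30367 probes, 18006 were matched through RefSeq accessions to a gene symbol. All 16 rats were fitted with 1 mean per group in limma 3.58.1 (R 4.3.3, lmFit and eBayes), giving 7 comparisons with Benjamini-Hochberg adjustment over all probes, and the fit was tested on simulated data. Genes past the threshold were named in each comparison, up to 10 by size of difference, or the 5 with the smallest p where none passed, and the values of every rat are given for genes called in 2 or more comparisons or leading a role group. The genes, lists and tests were chosen with earlier results of these data known. Promoter sequences came from RefSeq (GRCr8). The alternatives were another normalization, background correction, filter, floor, slide or row block, single slides, threshold, probe choice and leaving out each rat.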

Additional observations from a re-analysis of the deposited data

Results flagged for a closer look

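In 8 of 156 sets of 4 rats (39 genes in 4 groups) 1 rat lay far from the other 3 by Dixon's criterion, and chance marks about 1 in 20 sets, or 7.8 here. Among DSS-treated wildtype rats, rat 14 was high for Ifih1 (-2.5, others -2.97 to -2.94) and Parp14 (2.25, others 1.39 to 1.47), and rat 26 for Psmb9 (2.25, others 1.62 to 1.69). Among untreated Pirc rats, rat 23 was high for Igtp (6.12, others 5.42 to 5.54), Ifi47 (-2.27, others -2.75 to -2.71) and Psmb10 (4.79, others 3.80 to 3.92), and rat 11 for Oasl (-3.24, others -3.60 to -3.56). Among DSS-treated Pirc rats, rat 20 was high for Dhx58 (-3.36, others -3.63 to -3.61).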

How the results depend on the processing

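In the order DSS over both genotypes, DSS within Pirc, DSS within wildtype, Pirc averaged over the treatments and Pirc with DSS, the number of the 39 genes called was 14, 8, 8, 12 and 11. With each rat left out in turn it ranged over 12 to 15, 6 to 9, 5 to 8, 9 to 13 and 10 to 13. It was 0 throughout for Pirc without DSS and for the difference between the DSS effects. Without rat 14 the DSS count within wildtype was 5, since Rsad2 (adjusted p = 0.0849), Irgm (0.0960) and Bst2 (0.0540) were lost. On slide 1 alone, with 2 rats per group, the counts in that order were 6, 5, 2, 0 and 0, and on slide 2 alone 3, 3, 0, 0 and 0. At an adjusted p of 0.20 or less the last 4 of the 5 counts were 13, 13, 20 and 20. With a required change of 2-fold or more they were 8 for DSS over both genotypes, 3 for Pirc averaged over the treatments and 4 for Pirc with DSS. Fitted on the compared groups alone they were 5 for DSS within wildtype and 5 for Pirc with DSS. The cause of these changes was not tested, apart from the fewer samples or other threshold that some have by construction. The counts moved by less than 1.5 times under quantile normalization, normexp, the filter on dim probes, the common floor, both blocks, kept flagged spots, no moderation and the mean of a gene's probes, although quantile normalization changed the genes that fell with DSS within Pirc from 1 to 3 and those lower for Pirc with DSS from 7 to 10.

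The only sign change was Ifit3 in Pirc against wildtype without DSS, from 1.59 to -0.045 with normexp. Calls were also lost under quantile normalization for Irf8 (adjusted p = 0.127), Ifit2 (0.105) and Oasl (0.0515) over both genotypes and for Oasl within Pirc (0.0630), for Irf8 over both genotypes under normexp (0.0610), for Irgm within wildtype (0.0700) and Gbp5 in Pirc with DSS (0.0588) under normexp, and for Isg15 (0.0618) and Oasl (0.0510) within Pirc with a common floor. Those of Ifit3 and of Gbp5 for Pirc averaged over the treatments are given above. Other calls lost when 1 rat was left out, with the highest adjusted p, were Ifit2 (0.0602) and Parp14 (0.0540) for DSS over both genotypes, Irgm (0.0745) for Pirc with DSS, and Stat2 (0.0515), Ifit3 (0.0673), Gbp5 (0.0676) and Dhx58 (0.0712) for Pirc averaged over the treatments. Without DSS-treated wildtype rat 18 the median difference of the 39 genes for Pirc with DSS was -0.40. No paired analysis was possible because the rat numbers are not shared between groups. Signal over background limits Ifit1 and Ifit3.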
